A study of Mus musculus with 6 samples.

Results

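Mouse bone marrow-derived dendritic cells stimulated with lipopolysaccharide (LPS), a cell wall component of Gram-negative bacteria, were set against the same kind of culture stimulated with reactive oxygen species (ROS) that light had generated inside the cells. The samples were taken by their labels, 2 LPS samples and 2 ROS samples, which is 4 of the 6 samples of the series. Every probe with a gene name entered, 10558 annotated probes among 25697 on the array, and the measure was the difference of the group means on the log2 scale, LPS minus ROS. After probes near background were set aside, 7897 genes were tested.

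The LPS samples had received 1 µg/ml LPS for 18 h. The ROS samples had received 1 µg/ml hematoporphyrin, a porphyrin that passes light energy on to oxygen, for 1 h. They were then washed in medium free of phenol red, lit for 3 min at 3.1 mW per square cm by a diode source spanning 450 to 600 nm with its peak at 515 nm, and cultured for another 18 h. The 2 unstimulated samples are given beside the others as the background level, and the labels record no lamp, photosensitiser or wash for them or for the LPS samples, so each contrast covers a whole procedure. All 6 cultures were grown for 6 d from bone marrow of mice aged 6 weeks in medium holding 1.5 ng/ml each of the cytokines GM-CSF and IL-4. All carried the genotype C57BL/10NAGCSnAi-(KO) Rag2. Loss of Rag2 stops rearrangement of antigen receptor genes, so such mice have no mature T or B cells. Whether replicates came from separate mice or cultures is not stated in the labels, and p-values here measure only the spread between these samples.

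LPS is bound by CD14 and MD-2 and signals through the receptor TLR4. An arm of that pathway that runs through MyD88 leads to NF-kappaB and inflammatory cytokines, and an arm that runs through TRAM and TRIF leads to IRF3, type I interferon and the genes that interferon switches on. Light on a porphyrin yields mainly singlet oxygen, which oxidises lipids and proteins near the place where it forms. Dendritic cells that mature take up less antigen, present more of it and move to lymph nodes with the help of the chemokine receptor CCR7.

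Across the whole array, 1963 genes rose and 2438 fell with LPS relative to ROS, so the background share of genes called in either direction was 55.7% (24.9% higher and 30.9% lower). With a difference of at least 2-fold added, 898 genes were higher (11.4%) and 1160 were lower (14.7%). Levels are log2 normalised intensities, the value after ± is the SE of the fitted difference with n = 2 arrays in each group, and p-values are limma's, adjusted by the Benjamini-Hochberg method over 11622 probes. The 2 LPS and 2 ROS arrays did not overlap for 78.6% of genes, and the middle gene had a log2 difference of -0.08. In the authors' own log2 values the same difference of means ran from -5.56 to 5.70 over the 10558 annotated probes, with 689 probes at least 1 higher and 662 at least 1 lower. All 4401 called genes had the same sign there, and the median size of their differences was 0.61 in the authors' values against 0.95 after the background correction used here.

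The split between higher and lower genes depended on how arrays were scaled to each other. Mean signal was 545 and 529 on the LPS arrays, 626 and 643 on the ROS arrays and 765 and 704 on the unstimulated arrays. Quantile scaling, used throughout, made 44.6% of the called genes higher with LPS. Median scaling made 22.1% of them higher (1111 higher and 3923 lower), and no scaling made 17.4% higher (926 higher and 4381 lower), with the middle gene at -0.45 and -0.59. Of the 4401 called genes, 4257 kept their sign under median scaling and 4035 with no scaling, so a difference near 0 has no settled sign.

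**Figure D1:**
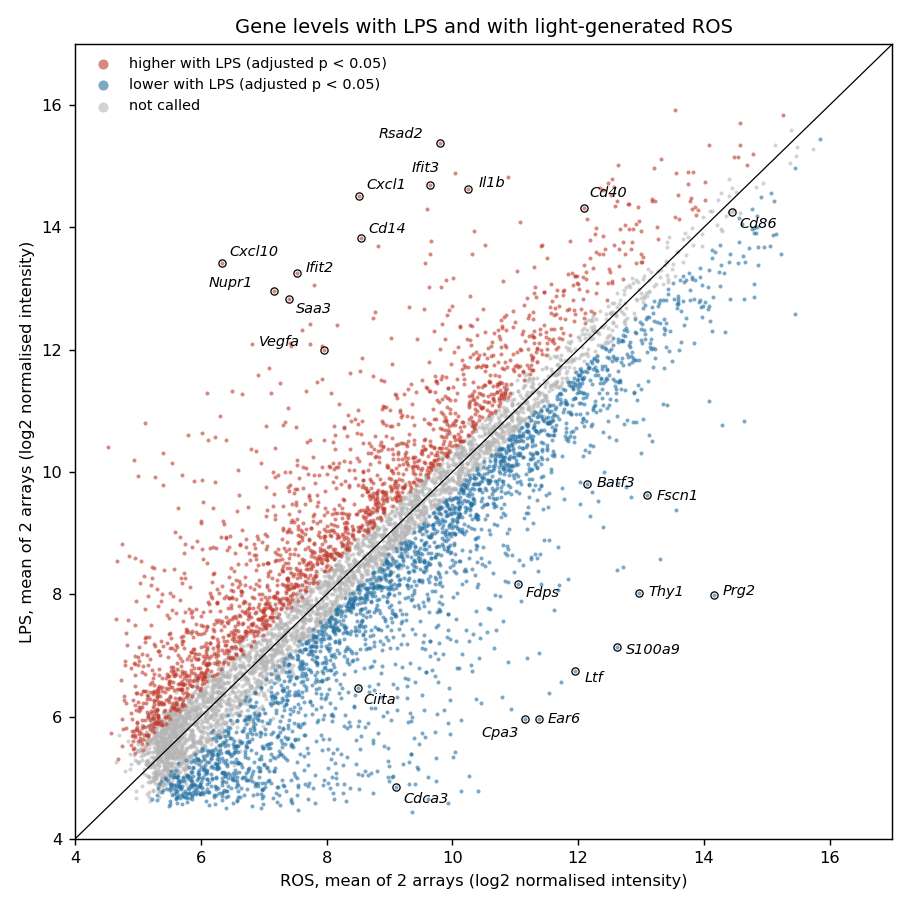
Mean log2 normalised intensity of each of the 7897 genes on the 2 LPS arrays (vertical) and the 2 ROS arrays (horizontal), with genes called higher with LPS in red, lower in blue and others in grey, and with the line of equal levels. Cxcl10, Nupr1 and Rsad2 lie far above the line, while Prg2, S100a9, Ltf and Cpa3 lie far below it.

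Cxcl10 and Prg2 were the widest gaps in the 2 directions. Cxcl10, which encodes a chemokine for activated T cells and natural killer cells, lay at 13.38 and 13.46 on the LPS arrays, 6.54 and 6.14 on the ROS arrays and 5.02 and 4.95 on the unstimulated arrays. Its arrays were all higher with LPS than with ROS, by 7.09 ± 0.16 or 136-fold (adjusted p = 7.26e-06). Prg2, which encodes the major basic protein of eosinophil granules, lay at 8.10 and 7.88 on the LPS arrays, 14.10 and 14.21 on the ROS arrays and 12.85 and 12.88 on the unstimulated arrays. It was 71.8-fold lower with LPS than with ROS, a log2 difference of -6.17 ± 0.13 (adjusted p = 7.26e-06). In RNA from a whole culture, fewer cells of a type and less RNA per cell cannot be told apart.

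Of the 12 genes highest with LPS relative to ROS, 9 were above background on all LPS and ROS arrays. They were Cxcl10, Cxcl1, Nupr1, Ifit2, Rsad2, Saa3, Cxcl2, Cd14 and Clec4e, with log2 differences between 5.26 and 7.09. The other 3, Ms4a8a, Fam110c and Vnn3, were not above background on either ROS array, so the fold is a bound: the LPS mean against the lowest level that counted as above background on each ROS array, or the probe's own level where that was higher. Ms4a8a was at least 35.1-fold higher with LPS, Fam110c at least 45.9-fold and Vnn3 at least 30.3-fold. Of the 12 genes lowest with LPS, Nrep, Prtn3, Ctsg, Asb2 and Fgd2 were not above background on either LPS array. Nrep was at least 30.6-fold higher with ROS, Asb2 at least 27.9-fold and Fgd2 at least 17.7-fold. Apart from these, the list held Prg2, S100a9, Ear6, Ltf, Cpa3, Adam23 and Prss34, with log2 differences between -6.17 and -5.16.

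**Figure D2:**
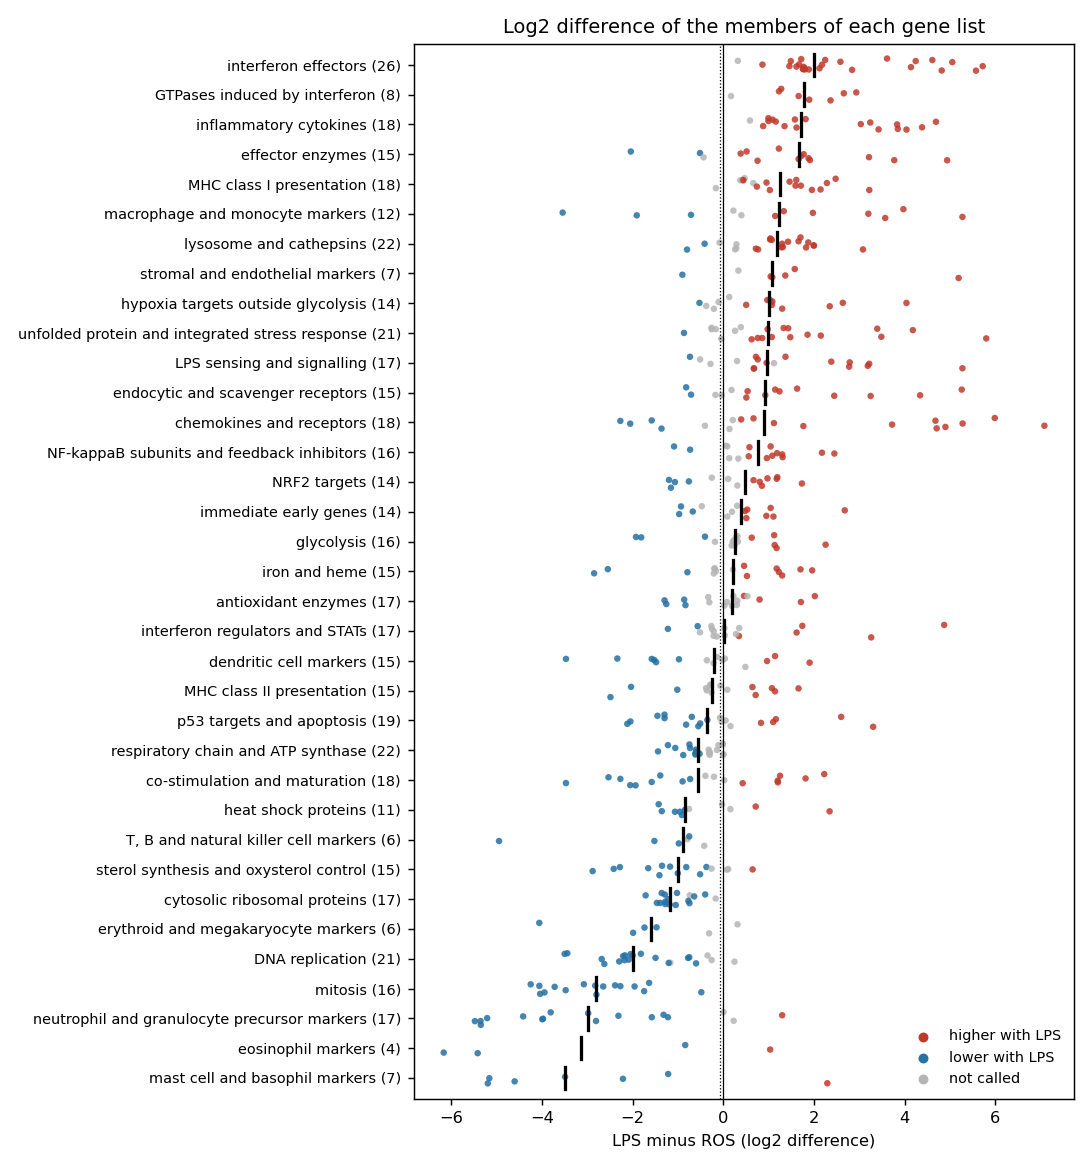
Log2 difference (LPS minus ROS) of every measured member of 35 gene lists, 1 point a gene, ordered by the list median (thick bar), with measured members in brackets. Red points rose, blue points fell, grey points were not called, the solid line is 0 and the dotted line is the median of all genes (-0.08). Interferon effectors, interferon-induced GTPases, inflammatory cytokines and effector enzymes sit at the top, and the mitosis, granulocyte, eosinophil and mast cell lists at the bottom.

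Genes that type I interferon induces were higher with LPS almost without exception. Of 26 measured interferon effectors, 25 rose with LPS relative to ROS and none fell, and the median log2 difference was 2.01 (all genes -0.08). The remaining member, Ifi27l2a, had a difference of 0.32 ± 0.33 and was not called. Ifit3, an RNA-binding antiviral protein, lay at 14.79 and 14.59 on the LPS arrays, 9.60 and 9.68 on the ROS arrays and 6.13 and 6.10 on the unstimulated arrays. Isg15, a ubiquitin-like modifier that is joined to other proteins, lay at 12.41 and 12.40 on the LPS arrays, 8.26 and 8.06 on the ROS arrays and 5.16 and 5.15 on the unstimulated arrays. Both genes were ordered LPS, ROS, unstimulated with no overlap between groups. Ifit3 was 33.2-fold higher with LPS than with ROS (5.05 ± 0.12, adjusted p = 7.26e-06), and Isg15 was 19-fold higher (4.25 ± 0.12, adjusted p = 7.96e-06).

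The same order held for Rsad2, or viperin, which blocks viral replication and lay at 15.37 and 15.39 on the LPS arrays, 9.61 and 9.99 on the ROS arrays and 7.78 and 7.54 on the unstimulated arrays. Ifit2, a second member of the IFIT family, differed by 5.72 ± 0.11. Oasl1 and Cmpk2, a 2'-5'-oligoadenylate synthetase-like protein and a mitochondrial nucleotide kinase, differed by 4.82 ± 0.20 and 4.61 ± 0.19. Isg15, Oasl1, Cmpk2 and Cxcl10 were not above background on the unstimulated arrays but were on both arrays of each stimulated group. Close copies exist for several of these genes (Oas1a and Oas1g, Ifit3 and Ifit3b), and shared hybridisation was not tested.

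Promoter sequences of these genes were read around their starts. The interferon-stimulated response element is a motif common ahead of interferon-induced genes, and it was searched as GAAA, any 2 bases and GAAA again on both strands of the 250 bases before and 50 bases after each gene start in RefSeq (GRCm38.p6). It was present in 11 of the 16 interferon effectors that had a promoter entry (68.8%), and in 7 of 7 interferon-induced GTPases, against 3.99% of all 27025 genes with an entry and 4.12% of the genes tested. Of genes at least 4-fold higher with LPS, 29 of 210 held it (13.8%), against 9 of 262 of those at least 4-fold lower (3.44%). Ifit2, Oasl1, Oasl2, Cmpk2 and Ifi35 held no match in this window. Shown next are the promoters of the effectors and the chemokine with the largest differences that hold a match, with the motif in capitals. Ifit3 is at chr19:34583279-34583578 (plus strand, matches starting at -156 and -122 from the gene start), Isg15 at chr4:156200769-156201068 (minus strand, overlapping matches from -78, -72 and -66), Rsad2 at chr12:26456403-26456702 (minus strand, from -120) and Cxcl10 at chr5:92348840-92349139 (minus strand, from -213).
Ifit3: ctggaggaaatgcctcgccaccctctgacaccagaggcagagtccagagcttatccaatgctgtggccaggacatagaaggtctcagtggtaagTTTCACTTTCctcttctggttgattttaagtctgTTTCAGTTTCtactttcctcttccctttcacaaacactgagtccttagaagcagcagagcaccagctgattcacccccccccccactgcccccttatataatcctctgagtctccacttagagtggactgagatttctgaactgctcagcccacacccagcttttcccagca
Isg15: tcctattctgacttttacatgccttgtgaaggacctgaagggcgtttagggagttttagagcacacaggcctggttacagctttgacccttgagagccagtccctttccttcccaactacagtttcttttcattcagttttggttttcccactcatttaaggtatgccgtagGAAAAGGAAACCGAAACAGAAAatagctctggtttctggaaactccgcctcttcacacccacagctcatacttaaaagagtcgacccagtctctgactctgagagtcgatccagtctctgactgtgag
Rsad2: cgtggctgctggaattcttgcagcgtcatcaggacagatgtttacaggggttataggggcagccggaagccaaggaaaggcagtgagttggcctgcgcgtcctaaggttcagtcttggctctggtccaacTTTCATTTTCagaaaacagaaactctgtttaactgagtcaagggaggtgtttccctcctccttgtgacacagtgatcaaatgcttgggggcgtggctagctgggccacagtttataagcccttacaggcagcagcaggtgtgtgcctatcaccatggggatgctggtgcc
Cxcl10: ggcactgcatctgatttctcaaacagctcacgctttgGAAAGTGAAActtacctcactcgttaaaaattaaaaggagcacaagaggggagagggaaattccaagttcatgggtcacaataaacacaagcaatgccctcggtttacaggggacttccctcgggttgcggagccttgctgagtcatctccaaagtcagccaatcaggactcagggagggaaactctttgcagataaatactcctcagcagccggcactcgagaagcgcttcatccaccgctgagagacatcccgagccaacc
The letters are a description of these windows and show no binding.

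Regulators upstream of these effectors did not move as a group. Of 17 measured interferon regulators, receptors and STATs, 5 rose and 2 fell, and the median of 0.03 turned negative under median scaling (-0.26) and no scaling (-0.40). This list did not hold Stat4, which fell and is given with the maturation genes. Under median scaling 4 rose and 6 fell, and with no scaling 4 rose and 7 fell. Irf7, the factor that amplifies type I interferon production, lay at 13.69 and 13.70 on the LPS arrays, 8.75 and 8.90 on the ROS arrays and 6.01 and 5.58 on the unstimulated arrays. Its difference of 4.87 ± 0.17 (adjusted p = 1.18e-05) was the largest of this list. Socs3, a feedback inhibitor of cytokine receptors, was higher with LPS at 13.54 and 13.60 on the LPS arrays, 10.30 and 10.31 on the ROS arrays and 12.23 and 12.28 on the unstimulated arrays, and the ROS arrays lay below the unstimulated ones. Stat2 rose by 1.74 ± 0.13. Tyk2, the kinase bound to the interferon receptor, fell by 1.22 ± 0.12 on the log2 scale, and Irf3 fell by 0.56 ± 0.11, a call lost when all probes of the gene were averaged. Irf9 differed by 0.35 ± 0.12 (adjusted p = 0.0463), its call was also lost with any array left out and with a replicate block, and its sign turned under median scaling and no scaling. Ifnar2, a chain of the type I interferon receptor, differed by 1.62 ± 0.38 with a ROS array below background.

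Interferon-induced GTPases, which attack the membranes around intracellular microbes, were higher in 7 of 8 measured members, with a median of 1.78. Gbp2, a guanylate-binding protein, lay at 15.91 and 15.91 on the LPS arrays, 13.52 and 13.57 on the ROS arrays and 13.01 and 12.98 on the unstimulated arrays. Its log2 difference was 2.37 ± 0.11 (adjusted p = 2.27e-05), and its probes disagreed in size (2.37 to 4.09). Gbp7, Gbp3, Gbp5 and Igtp differed by 2.94 ± 0.23, 2.66 ± 0.14, 1.90 ± 0.19 and 1.66 ± 0.11. The uncalled member, Gvin1, had 0.17 ± 0.21.

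Secreted cytokines followed the same direction. Of 18 measured inflammatory cytokines and growth factors, 17 rose with LPS relative to ROS and none fell, with a median of 1.72, and Csf3 was the member not called (0.59 ± 0.23). Il1b, the secreted form of interleukin-1 that needs cleavage by caspase-1, lay at 14.63 and 14.63 on the LPS arrays, 10.20 and 10.30 on the ROS arrays and 11.90 and 11.84 on the unstimulated arrays. The ROS arrays were the lowest of the 3 groups and the LPS arrays the highest, 20.9-fold above ROS (4.39 ± 0.11, adjusted p = 7.26e-06). Il1a differed by 4.69 ± 0.12. Il6, a driver of the acute phase response, lay at 9.06 and 8.97 on the LPS arrays, 5.35 and 5.82 on the ROS arrays and 5.39 and 6.0 on the unstimulated arrays. ROS and unstimulated arrays overlapped for Il6, and LPS exceeded ROS by 3.43 ± 0.25 (adjusted p = 1.20e-04).

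Il12a, which encodes the p35 chain of interleukin-12, lay at 9.81 and 9.91 on the LPS arrays, 5.76 and 6.29 on the ROS arrays and 4.98 and 4.86 on the unstimulated arrays. It was not above background without stimulation and was 14.3-fold higher with LPS than with ROS. Tnf, the fast inflammatory cytokine, lay at 10.69 and 10.48 on the LPS arrays, 8.85 and 8.69 on the ROS arrays and 6.71 and 6.52 on the unstimulated arrays. Here ROS also exceeded the unstimulated arrays, and LPS exceeded ROS by 1.82 ± 0.14 (adjusted p = 1.54e-04). Inhba, a subunit of activin A, differed by 3.85 ± 0.24. Vegfa, the vascular growth factor, lay at 12.02 and 11.97 on the LPS arrays, 8.05 and 7.85 on the ROS arrays and 11.53 and 11.83 on the unstimulated arrays, so the gap of 4.04 ± 0.15 came with low ROS arrays and LPS arrays close to the unstimulated level. The chain shared by interleukin-12 and interleukin-23 (Il12b) and interferon beta (Ifnb1) were not among the genes tested. Probes above background on the 2 LPS arrays alone had no gene name here, so this absence does not show a low level.

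**Figure D3:**
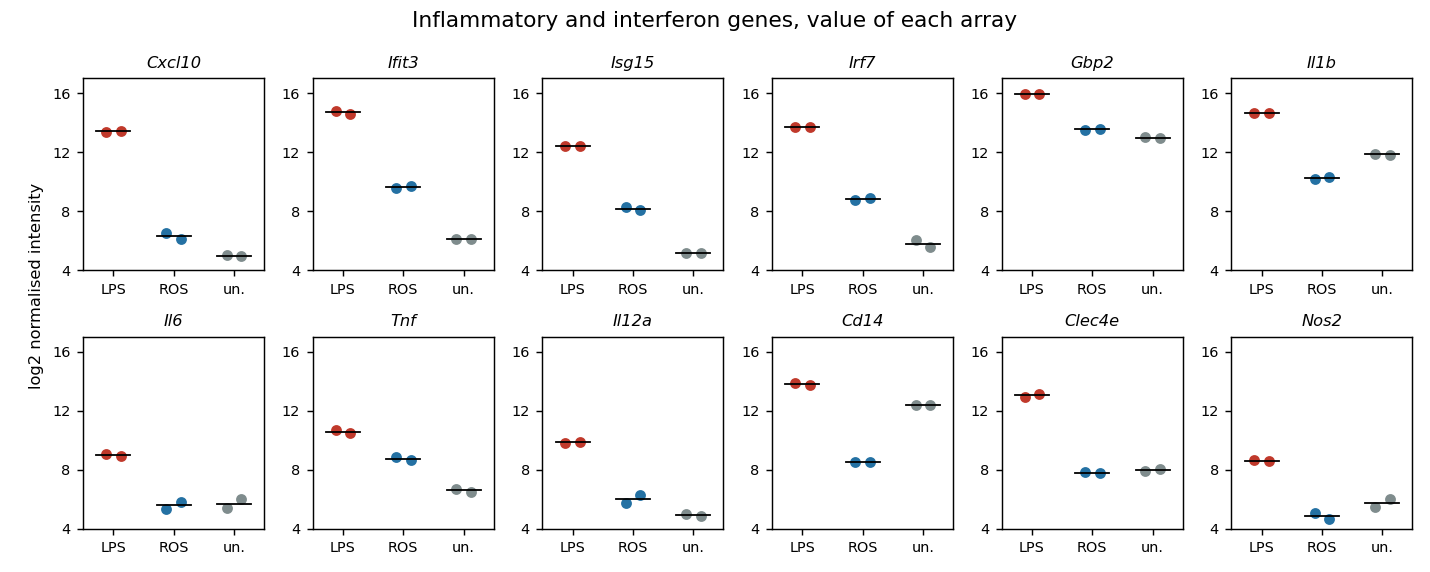
Log2 normalised intensity of 12 inflammatory and interferon genes on each array (points) with the group mean (bar), for LPS, ROS and unstimulated (un.) samples. In all 12 panels both LPS points lie above both ROS points, and for Il1b and Cd14 the ROS points also lie below the unstimulated ones.

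Chemokines divided into a group higher with LPS and a group higher with ROS. Of 18 measured chemokines and chemokine receptors, 11 rose and 4 fell, with a median of 0.89. Cxcl1, a neutrophil attractant, lay at 14.49 and 14.53 on the LPS arrays, 8.47 and 8.56 on the ROS arrays and 7.92 and 8.29 on the unstimulated arrays. Cxcl2, a close relative, lay at 12.10 and 12.10 on the LPS arrays, 6.98 and 6.66 on the ROS arrays and 7.68 and 8.06 on the unstimulated arrays. For both, the LPS arrays exceeded all others, and the differences from ROS were 5.99 ± 0.15 and 5.28 ± 0.18. The monocyte attractant Ccl12 and the atypical receptor Ccrl2 differed by 4.90 ± 0.15 and 4.71 ± 0.12. Decorin and other stromal markers, whose cells also make such chemokines, were mostly higher in the same LPS arrays (5 of 7 measured, with 1 lower). Their summed level was 12.12 to 12.20 with LPS and 10.995 to 11.02 with ROS, and their part in the chemokine values was not tested.

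The 4 that fell were Ccl22, Ccl17, Ccr7 and Ccl24. Ccl22, an attractant for CCR4-bearing T cells, lay at 7.33 and 7.68 on the LPS arrays, 9.69 and 9.86 on the ROS arrays and 7.27 and 7.21 on the unstimulated arrays. LPS arrays were close to unstimulated and ROS arrays were above both, a difference of -2.27 ± 0.15 (adjusted p = 9.77e-05). Ccl17, the second CCR4 ligand, lay at 10.81 and 10.82 on the LPS arrays, 12.59 and 13.15 on the ROS arrays and 12.72 and 12.87 on the unstimulated arrays and was 4.15-fold lower with LPS than with ROS. Ccr7, the receptor that guides dendritic cells to lymph nodes, lay at 8.99 and 8.41 on the LPS arrays, 9.92 and 10.64 on the ROS arrays and 9.32 and 9.38 on the unstimulated arrays. The LPS and ROS arrays did not overlap, with a wide spread inside each group, and the difference was -1.58 ± 0.29 (adjusted p = 0.00479). Ccl24, an eosinophil attractant, differed by -1.36 ± 0.25.

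Toll-like receptors and LPS signalling genes were mostly higher with LPS than with ROS. Of 17 measured members of this list, 12 rose and 1 fell, with a median of 0.96. The list includes receptors for other ligands, such as Tlr2, Tlr7 and Tlr8, and is not a count of LPS sensors. With no scaling 8 rose and 3 fell and the median was 0.56, and it was 0.61 in the authors' values. Cd14, the surface protein that hands LPS to the receptor, lay at 13.88 and 13.77 on the LPS arrays, 8.55 and 8.55 on the ROS arrays and 12.41 and 12.40 on the unstimulated arrays. The gap of 5.28 ± 0.11 (adjusted p = 7.26e-06) joined a higher level with LPS to a level with ROS far below the unstimulated arrays. Tlr2, the receptor for bacterial lipopeptides, lay at 13.65 and 13.76 on the LPS arrays, 10.35 and 10.69 on the ROS arrays and 11.19 and 11.35 on the unstimulated arrays and differed by 3.19 ± 0.15. Ticam2, the TRAM adaptor of the TRIF arm, lay at 11.35 and 11.23 on the LPS arrays, 8.16 and 7.98 on the ROS arrays and 10.86 and 11.33 on the unstimulated arrays: LPS and unstimulated arrays overlapped, and ROS was lower, leaving a difference of 3.22 ± 0.18. The endosomal receptors Tlr7 and Tlr8 differed by 2.78 ± 0.12 and 2.79 ± 0.14. Tlr4 itself differed by 0.72 ± 0.16 (adjusted p = 0.0112), a call lost under median scaling and no scaling. Traf6, a ubiquitin ligase downstream of MyD88, fell by 0.73 ± 0.11 on the log2 scale.

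Feedback inhibitors of NF-kappaB were among the genes that rose. Of 16 measured subunits, targets and feedback inhibitors, 10 rose and 2 fell, with a median of 0.77. With no scaling 6 rose and 3 fell and the median was 0.33. Nfkbiz, an atypical nuclear IkappaB protein, lay at 10.52 and 10.94 on the LPS arrays, 8.30 and 8.27 on the ROS arrays and 9.07 and 9.08 on the unstimulated arrays and differed by 2.45 ± 0.16. Tnfaip3, the A20 enzyme that ends NF-kappaB signalling, lay at 11.04 and 11.12 on the LPS arrays, 8.80 and 9.0 on the ROS arrays and 10.25 and 9.95 on the unstimulated arrays and differed by 2.18 ± 0.15 (adjusted p = 9.93e-05). For both, the LPS arrays were above the unstimulated level and the ROS arrays below it. Zc3h12a, Bcl3 and Tnip1 differed by 1.31 ± 0.13, 1.30 ± 0.12 and 1.19 ± 0.12. The 2 that fell were Relb, a subunit of the non-canonical pathway, at -0.73 ± 0.12, and the adhesion molecule Icam1, at -1.08 ± 0.15.

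Maturation genes did not share a direction. Of 18 measured co-stimulation and maturation genes, 6 rose and 9 fell with LPS relative to ROS, and the median was -0.56. Cd40, the receptor for help from T cells, lay at 14.36 and 14.29 on the LPS arrays, 12.03 and 12.16 on the ROS arrays and 9.68 and 9.58 on the unstimulated arrays. It stepped down by group from LPS through ROS to unstimulated, and LPS exceeded ROS by 2.23 ± 0.12 (adjusted p = 3.57e-05). Cd200 and Cd274, inhibitory ligands, differed by 1.82 ± 0.13 and 1.25 ± 0.12. Cd86, a main co-stimulatory ligand for CD28, lay at 14.32 and 14.18 on the LPS arrays, 14.46 and 14.45 on the ROS arrays and 12.26 and 12.27 on the unstimulated arrays. Both stimulated groups stood above the unstimulated arrays, and their difference of -0.20 ± 0.11 was not called (adjusted p = 0.169). Its 3 probes disagreed, from -0.37 to 3.35, and their mean gave 0.92, so the comparison of Cd86 depends on the probe.

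Fscn1 headed the maturation genes that were lower with LPS. It encodes fascin, which bundles actin in the extensions of mature dendritic cells, and lay at 9.63 and 9.63 on the LPS arrays, 13.12 and 13.09 on the ROS arrays and 10.33 and 10.53 on the unstimulated arrays. ROS arrays were the highest and LPS arrays the lowest of the 3 groups, and LPS was 11.1-fold below ROS (-3.47 ± 0.12, adjusted p = 1.14e-05). Cd80, the partner of CD86 in binding CD28, lay at 9.10 and 9.03 on the LPS arrays, 10.70 and 10.20 on the ROS arrays and 8.25 and 8.75 on the unstimulated arrays and differed by -1.39 ± 0.23 (adjusted p = 0.00325). Socs2, a feedback inhibitor of cytokine signalling, lay at 10.54 and 10.67 on the LPS arrays, 13.25 and 13.02 on the ROS arrays and 11.79 and 12.05 on the unstimulated arrays and differed by -2.53 ± 0.15. Stat4, which relays interleukin-12 signals, lay at 10.74 and 10.85 on the LPS arrays, 12.70 and 12.75 on the ROS arrays and 11.99 and 12.08 on the unstimulated arrays and differed by -1.93 ± 0.11. Basophil and mast cell markers were lower in the same LPS arrays (6 of 7 measured), and their part in these values was not tested.

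Antigen presentation genes were read by class. For class I, which displays peptides from inside the cell, 14 of 18 measured genes rose and none fell, with a median of 1.25. H2-K1, a class I heavy chain, lay at 9.68 and 9.69 on the LPS arrays, 7.65 and 7.14 on the ROS arrays and 6.73 and 6.99 on the unstimulated arrays. LPS exceeded ROS by 2.29 ± 0.20 (adjusted p = 2.34e-04), while ROS lay nearer to the unstimulated arrays. H2-T10, H2-D1 and H2-Q7 differed by 3.22 ± 0.15, 2.48 ± 0.16 and 1.96 ± 0.13, and tapasin (Tapbp), which loads peptides onto class I, by 2.15 ± 0.11. Class I genes are near-identical to each other in places, and cross-hybridisation was not tested.

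For class II, which displays peptides taken up from outside, 5 of 15 measured genes rose and 3 fell, with a median of -0.26. Among all genes tested, 24.9% rose and 30.9% fell. The balance of calls turned with the processing: 4 rose and 7 fell under median scaling, 2 rose and 9 fell with no scaling and 5 rose and 6 fell in the authors' values. H2-Ab1, a class II beta chain, lay at 14.87 and 14.93 on the LPS arrays, 13.78 and 13.73 on the ROS arrays and 15.64 and 15.44 on the unstimulated arrays. Both stimulated groups were below unstimulated, ROS the lower, so LPS exceeded ROS by 1.14 ± 0.12 (adjusted p = 5.41e-04). Ciita, the master regulator of class II transcription, ran the other way at 6.03 and 6.90 on the LPS arrays, 8.65 and 8.35 on the ROS arrays and 9.93 and 10.19 on the unstimulated arrays. It was lower with LPS than with ROS, a difference of -2.03 ± 0.30 (adjusted p = 0.00198). H2-DMa, a chain of the peptide exchange factor, fell with LPS by 1.01 ± 0.11 on the log2 scale, and H2-DMb2, its partner, by 2.49 ± 0.21 with an LPS array below background. Cathepsin S (Ctss), which trims the invariant chain, and the ubiquitin ligase Marchf1, which removes class II from the surface, rose by 1.66 ± 0.18 and 1.07 ± 0.14, the second not called with no scaling. H2-Aa differed by 0.72 ± 0.11, a call lost under median scaling and no scaling.

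**Figure D4:**
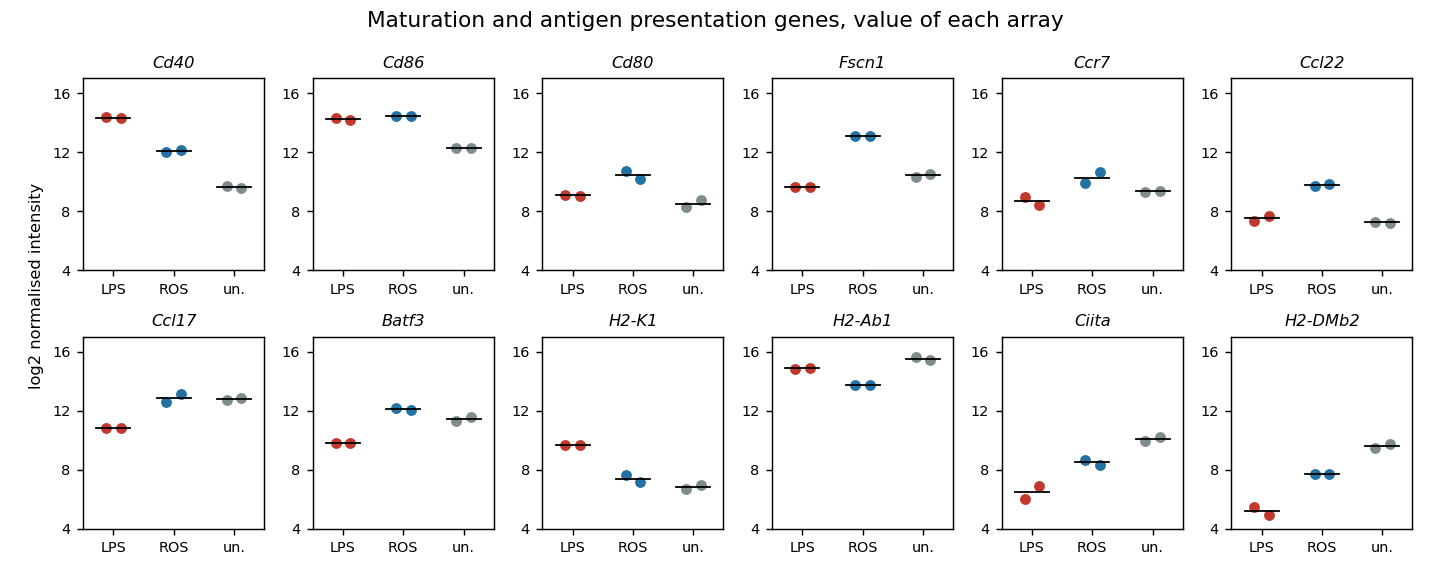
Log2 normalised intensity of 12 maturation and antigen presentation genes on each array (points) with the group mean (bar), for LPS, ROS and unstimulated (un.) samples. Cd40 and H2-K1 are highest with LPS, Fscn1, Ccl22, Ccr7, Cd80 and Batf3 are highest with ROS, and Ciita and H2-DMb2 are lowest with LPS, higher with ROS and highest without stimulation.

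Pattern recognition and Fc receptors were mostly higher with LPS. Of 15 measured endocytic and scavenger receptors, 10 rose and 2 fell, with a median of 0.93. The median was 0.53 in the authors' values and 0.43 with no scaling. Clec4e, or Mincle, a lectin for mycobacterial glycolipid, lay at 12.96 and 13.17 on the LPS arrays, 7.85 and 7.76 on the ROS arrays and 7.92 and 8.04 on the unstimulated arrays. Fcgr1, the high-affinity receptor for immunoglobulin G, lay at 10.60 and 10.53 on the LPS arrays, 6.36 and 6.08 on the ROS arrays and 6.04 and 6.07 on the unstimulated arrays. In both, ROS and unstimulated arrays were close together and LPS exceeded ROS by 5.26 ± 0.13 and 4.34 ± 0.13. Fcgr4, Clec4d and Axl differed by 3.25 ± 0.11, 2.45 ± 0.23 and 1.63 ± 0.11. Mertk, a receptor for dying cells, was lower with LPS, a difference of -0.71 ± 0.15. Clec10a, a lectin raised by IL-4, was not above background with LPS and at least 1.15-fold higher with ROS, a call not made in the authors' values or without ROS sample 2.

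Effector enzymes were mostly higher with LPS. Of 15 measured, 12 rose and 2 fell, with a median of 1.66. Nos2, inducible nitric oxide synthase, lay at 8.67 and 8.60 on the LPS arrays, 5.05 and 4.67 on the ROS arrays and 5.50 and 6.01 on the unstimulated arrays, with ROS arrays not above background, and was at least 10.3-fold higher with LPS. Ptges, which makes prostaglandin E2, was likewise at least 25.3-fold higher, at 9.97 and 9.90 with LPS, against 5.01 and 4.98 with ROS. Ch25h, which makes the antiviral oxysterol 25-hydroxycholesterol, lay at 12.97 and 13.09 on the LPS arrays, 9.70 and 9.93 on the ROS arrays and 7.99 and 7.90 on the unstimulated arrays and differed by 3.22 ± 0.13 (adjusted p = 1.77e-05). Arg1, an IL-4-induced enzyme that consumes arginine, lay at 12.94 and 12.77 on the LPS arrays, 11.30 and 11.08 on the ROS arrays and 14.61 and 14.41 on the unstimulated arrays: it was lower in both stimulated groups than without stimulation, and ROS was the lower by 1.66 ± 0.14. Alox5, the first enzyme of leukotriene synthesis, lay at 7.68 and 7.75 on the LPS arrays, 9.82 and 9.69 on the ROS arrays and 8.82 and 8.67 on the unstimulated arrays and was 4.11-fold lower with LPS than with ROS. Ido1 differed by -0.51 ± 0.14, a call lost without LPS sample 2 or either ROS sample.

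Among stress response genes, most of those called under quantile scaling were higher with LPS. Of 21 measured genes of the unfolded protein and integrated stress responses, 14 rose and 1 fell, with a median of 0.98. Under median scaling 11 rose and 4 fell, and with no scaling 9 rose and 6 fell, with medians of 0.55 and 0.41. Ddit3, the CHOP factor that ATF4 induces, lay at 13.02 and 13.04 on the LPS arrays, 9.63 and 9.64 on the ROS arrays and 9.65 and 9.77 on the unstimulated arrays. The ROS arrays overlapped none of the LPS arrays and were about level with the unstimulated ones, and LPS exceeded ROS by 3.40 ± 0.11 or 10.5-fold (adjusted p = 9.42e-06). Nupr1, a small stress-induced chromatin protein, lay at 12.92 and 13.01 on the LPS arrays, 7.05 and 7.28 on the ROS arrays and 9.22 and 9.40 on the unstimulated arrays. Chac1, which breaks down glutathione, lay at 11.34 and 11.25 on the LPS arrays, 7.09 and 7.14 on the ROS arrays and 9.43 and 9.22 on the unstimulated arrays. For both, ROS was below the unstimulated level, with differences of 5.80 ± 0.14 and 4.18 ± 0.12 from LPS. Trib3, a pseudokinase, was at least 9.61-fold higher with LPS, and asparagine synthetase (Asns) differed by 2.15 ± 0.16. The gene that fell was Xbp1, the factor of the IRE1 branch, at -0.87 ± 0.15.

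Heat shock genes were mostly lower with LPS. Of 11 measured, 2 rose and 6 fell with LPS, with a median of -0.85. Hspa8, the constitutive HSP70, lay at 12.78 and 12.66 on the LPS arrays, 14.14 and 14.01 on the ROS arrays and 13.60 and 13.47 on the unstimulated arrays and differed by -1.36 ± 0.12. Fkbp4, a co-chaperone of HSP90, lay at 9.81 and 9.78 on the LPS arrays, 11.12 and 11.32 on the ROS arrays and 9.91 and 9.99 on the unstimulated arrays and differed by -1.42 ± 0.12 (adjusted p = 2.28e-04). The mitochondrial chaperonin Hspd1 and the HSP70-HSP90 adaptor Stip1 differed by -1.06 ± 0.15 and -0.91 ± 0.13. Hspa1a, the inducible HSP70, lay at 7.15 and 7.20 on the LPS arrays, 4.75 and 4.91 on the ROS arrays and 7.72 and 7.89 on the unstimulated arrays. It was not above background with ROS at 18 h after light and at least 3.74-fold higher with LPS, while the unstimulated arrays were the highest. Cryab, a small heat shock protein, was the other member that rose, a call lost with no scaling.

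Genes of the oxidative stress factor NRF2 did not favour either stimulus as a list. Of 14 measured NRF2 targets, 7 rose and 4 fell with LPS, with a median of 0.49. Under median scaling 5 rose and 6 fell, and with no scaling 5 rose and 6 fell. Hmox1, heme oxygenase-1, lay at 10.08 and 10.56 on the LPS arrays, 9.41 and 8.87 on the ROS arrays and 10.81 and 10.64 on the unstimulated arrays. It was lowest with ROS, and LPS exceeded ROS by 1.18 ± 0.24 (adjusted p = 0.00708). Slc7a11, the cystine importer, lay at 13.01 and 12.89 on the LPS arrays, 11.66 and 11.85 on the ROS arrays and 10.66 and 10.62 on the unstimulated arrays, above the unstimulated level in both stimulated groups, with a difference of 1.19 ± 0.12. Nfe2l2, which encodes NRF2 itself, lay at 8.76 and 8.81 on the LPS arrays, 7.10 and 6.99 on the ROS arrays and 8.0 and 8.33 on the unstimulated arrays and differed by 1.74 ± 0.15. Gclm, a subunit of the enzyme that limits glutathione synthesis, ran the other way at 9.56 and 9.42 on the LPS arrays, 10.74 and 10.55 on the ROS arrays and 9.71 and 9.57 on the unstimulated arrays, with a difference of -1.15 ± 0.13. So did the pentose phosphate enzymes Taldo1 and Tkt, at -1.07 ± 0.11 and -1.20 ± 0.24. Nqo1, a quinone reductase, lay at 7.93 and 7.75 on the LPS arrays, 8.14 and 8.05 on the ROS arrays and 6.26 and 6.18 on the unstimulated arrays, above unstimulated in both groups, and its difference of -0.25 ± 0.12 was not called under quantile scaling (adjusted p = 0.128) but was called lower under median scaling and no scaling.

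Antioxidant enzymes did not favour either stimulus as a list. Their counts were near the shares of all genes tested (24.9% higher and 30.9% lower). Of 17 measured, 4 rose and 4 fell, and the median of 0.19 turned negative under median scaling (-0.15), under no scaling (-0.28) and without LPS sample 1 (-0.03). Under median scaling 3 rose and 6 fell, and with no scaling 3 rose and 8 fell. Sod2, mitochondrial superoxide dismutase and an NF-kappaB target, lay at 12.49 and 12.64 on the LPS arrays, 10.92 and 10.78 on the ROS arrays and 10.77 and 10.35 on the unstimulated arrays and differed by 1.71 ± 0.17. Catalase (Cat), which breaks down hydrogen peroxide, lay at 9.60 and 9.69 on the LPS arrays, 10.90 and 10.97 on the ROS arrays and 10.16 and 10.22 on the unstimulated arrays and was lower with LPS, a difference of -1.29 ± 0.11 (adjusted p = 2.35e-04). Gpx1, a glutathione peroxidase, lay at 13.94 and 13.85 on the LPS arrays, 15.13 and 15.17 on the ROS arrays and 15.37 and 15.27 on the unstimulated arrays. It was level between ROS and unstimulated arrays and lower with LPS, a difference of -1.26 ± 0.11. The secreted peroxidase Gpx3 was 4.06-fold higher with LPS, with ROS the lowest of the 3 groups.

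Iron genes showed 2 large drops with LPS. Of 15 measured iron and heme genes, 7 rose and 3 fell, and the median of 0.22 turned negative under median scaling (-0.02) and no scaling (-0.16). Under median scaling 5 rose and 6 fell, and with no scaling 5 rose and 6 fell. With an ROS or LPS array left out the median ran from 0.04 to 0.37. Slc40a1, or ferroportin, the iron exporter, lay at 7.92 and 7.60 on the LPS arrays, 10.51 and 10.70 on the ROS arrays and 10.24 and 10.48 on the unstimulated arrays. Tfrc, the transferrin receptor that brings iron in, lay at 9.55 and 9.40 on the LPS arrays, 11.99 and 12.06 on the ROS arrays and 12.15 and 12.09 on the unstimulated arrays. In both, ROS was near the unstimulated arrays and LPS was below, with differences of -2.85 ± 0.16 and -2.55 ± 0.12. The transporters of iron out of endosomes and phagosomes, Slc11a2 and Slc11a1, were higher with LPS by 1.96 ± 0.12 and 1.71 ± 0.12. Lcn2, which binds bacterial siderophores, differed by 1.30 ± 0.11. Ppox, an enzyme of heme synthesis, differed by -0.79 ± 0.11.

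Among hypoxia-linked genes, most of those called under quantile scaling were higher with LPS. Of 14 measured hypoxia targets outside glycolysis, 9 rose and 1 fell, with a median of 1.0. Under median scaling 7 rose and 4 fell, and with no scaling 5 rose and 5 fell. The median was 0.40 with no scaling and 0.39 in the authors' values. Hif1a, the oxygen-regulated subunit of the hypoxia factor, lay at 10.74 and 10.76 on the LPS arrays, 7.95 and 8.28 on the ROS arrays and 8.36 and 8.73 on the unstimulated arrays. LPS exceeded all other arrays and differed from ROS by 2.64 ± 0.18 (adjusted p = 8.94e-05). Ndrg1, a hypoxia-induced gene, lay at 9.35 and 9.04 on the LPS arrays, 7.95 and 7.84 on the ROS arrays and 11.39 and 11.34 on the unstimulated arrays: both stimulated groups were below unstimulated, ROS the lower by 1.30 ± 0.14. Plin2, a lipid droplet coat protein, differed by 2.35 ± 0.23. Egln1, an oxygen-sensing hydroxylase, was the member that fell, and its call was lost without LPS sample 2, without ROS sample 1 and in 3 of the other settings tried.

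Glycolysis as a list showed no common direction, where 24.9% of all genes tested were higher and 30.9% lower. Of 16 measured genes, 5 rose and 3 fell, and the median of 0.27 turned to -0.02 with no scaling. With no scaling 4 rose and 5 fell. Slc2a1, the glucose transporter GLUT1, lay at 12.27 and 12.34 on the LPS arrays, 11.08 and 11.17 on the ROS arrays and 13.65 and 13.64 on the unstimulated arrays. Hk2, the inducible hexokinase, lay at 13.77 and 13.65 on the LPS arrays, 12.52 and 12.63 on the ROS arrays and 14.56 and 14.55 on the unstimulated arrays. Both were below unstimulated in the 2 stimulated groups, and LPS exceeded ROS by 1.18 ± 0.11 and 1.13 ± 0.11. Hk3, the myeloid hexokinase, differed by 2.26 ± 0.12. Slc2a3, the transporter GLUT3, was lower with LPS at 7.86 and 7.56 on the LPS arrays, 9.66 and 9.60 on the ROS arrays and 11.22 and 11.50 on the unstimulated arrays, a difference of -1.92 ± 0.16. Ldha, lactate dehydrogenase A, differed by 0.63 ± 0.15.

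Immediate early genes, which respond to signals within minutes, were measured at 18 h. Of 14 on the list that passed the filter, 7 rose and 3 fell with LPS relative to ROS, with a median of 0.39. With no scaling 3 rose and 4 fell and the median was 0.02. Fos lay at 9.37 and 9.50 on the LPS arrays, 6.53 and 6.97 on the ROS arrays and 13.12 and 13.00 on the unstimulated arrays. LPS exceeded ROS by 2.68 ± 0.17 (adjusted p = 7.96e-05), with the unstimulated arrays highest. Klf2 and Egr2 were lower with LPS than with ROS, with differences of -0.97 ± 0.13 and -0.93 ± 0.12. Dusp1, a phosphatase for MAP kinases, and Junb differed by 1.05 ± 0.18 and 0.95 ± 0.12. Jun differed by 0.48 ± 0.13, a call lost without LPS sample 1 or ROS sample 1, and its sign turned under median scaling and no scaling.

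Cell division genes were lower with LPS than with ROS. All 16 measured mitosis genes fell, with a median of -2.81, and 17 of 21 measured DNA replication genes fell with none rising, with a median of -2.0. In the authors' values the medians were -1.84 for mitosis and -0.85 for replication. Plk1, a mitotic kinase, lay at 5.68 and 6.11 on the LPS arrays, 9.88 and 9.98 on the ROS arrays and 9.03 and 8.98 on the unstimulated arrays. LPS arrays were below all others, and LPS was 16.4-fold below ROS (-4.04 ± 0.17, adjusted p = 1.77e-05). Cdca3, a trigger of mitotic entry, was not above background with LPS and was at least 12.4-fold higher with ROS, with ROS near the unstimulated level (5.05 and 4.66 with LPS, 9.26 and 8.94 with ROS and 9.02 and 9.09 without stimulation). Top2a and Cdc20, a DNA topoisomerase and an activator of the anaphase-promoting complex, were at least 14.6-fold and at least 14.4-fold higher with ROS.

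Among replication genes, Mcm5, a subunit of the replicative helicase, lay at 8.28 and 8.43 on the LPS arrays, 11.02 and 10.94 on the ROS arrays and 9.16 and 9.30 on the unstimulated arrays. ROS exceeded the unstimulated arrays, LPS was below them, and the difference was -2.62 ± 0.12 (adjusted p = 2.55e-05). Mcm2, a second helicase subunit, lay at 7.17 and 7.21 on the LPS arrays, 9.24 and 9.31 on the ROS arrays and 7.38 and 7.47 on the unstimulated arrays, with LPS close to unstimulated. Uhrf1, which keeps DNA methylation through replication, differed by -3.44 ± 0.11. Tk1, thymidine kinase, was not above background with LPS and at least 8.86-fold higher with ROS. Granulocyte precursors divide in such cultures, and their markers were mostly lower in the same LPS arrays (14 of 17 measured). The summed level of all 17 was 14.27 to 14.31 with LPS and 15.53 to 15.64 with ROS. That sum includes Lcn2, the marker that rose. The part of these markers in the cell division values was not tested.

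Motifs tied to the cell cycle were read in the same promoter windows. The E2F motif, searched as TTTGGCGC on both strands, was present in 4 of 18 DNA replication genes with an entry (22.2%), against 0.999% of the genes tested with an entry and 0.585% of all genes with an entry. CCAAT, which NF-Y binds and which is common in mitotic promoters, was present in 12 of 15 mitosis genes (80.0%), against 44.0% of the genes tested and 41.1% of all. Mcm2 and Uhrf1, named above, held no E2F match in their windows. The promoters of Mcm5 and Cdca3, a helicase gene and a mitosis gene that hold matches, are shown. The E2F match of Mcm5 and the CCAAT matches of Cdca3 are in capitals. CCAAT also occurs in the Mcm5 window, where it is in lower case. Mcm5 is at chr8:75109259-75109558 (plus strand, match from -149) and Cdca3 at chr6:124829926-124830225 (plus strand, matches from -104, -71 and -4).
Mcm5: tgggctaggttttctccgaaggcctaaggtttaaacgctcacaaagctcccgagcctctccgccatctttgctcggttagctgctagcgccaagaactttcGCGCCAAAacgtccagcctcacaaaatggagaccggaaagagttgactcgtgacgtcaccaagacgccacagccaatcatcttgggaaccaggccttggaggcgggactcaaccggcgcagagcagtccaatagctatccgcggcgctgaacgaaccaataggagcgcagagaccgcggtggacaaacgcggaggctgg
Cdca3: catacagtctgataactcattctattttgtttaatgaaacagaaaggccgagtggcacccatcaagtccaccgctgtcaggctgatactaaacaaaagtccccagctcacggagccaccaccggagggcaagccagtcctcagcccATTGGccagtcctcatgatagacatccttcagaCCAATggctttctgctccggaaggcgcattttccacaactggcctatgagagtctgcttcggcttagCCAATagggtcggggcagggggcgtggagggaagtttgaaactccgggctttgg

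Genes of ribosomes and mitochondria followed the same direction with smaller differences. Of 17 measured cytosolic ribosomal protein genes, 15 fell with LPS and none rose, with a median of -1.18. Rps19, of the small subunit, lay at 13.43 and 13.35 on the LPS arrays, 14.84 and 14.87 on the ROS arrays and 14.68 and 14.61 on the unstimulated arrays and differed by -1.46 ± 0.11. Rpl4, of the large subunit, lay at 8.81 and 8.73 on the LPS arrays, 10.27 and 10.70 on the ROS arrays and 10.69 and 10.76 on the unstimulated arrays and differed by -1.71 ± 0.17. In both, LPS was below the other 2 groups. Of 22 measured respiratory chain and ATP synthase genes, 12 fell and none rose, with a median of -0.55. Under median scaling 19 fell and with no scaling 20, and the median was -0.32 in the authors' values. Ndufa4, now counted as a cytochrome oxidase subunit, lay at 10.50 and 10.50 on the LPS arrays, 11.85 and 12.02 on the ROS arrays and 10.75 and 10.73 on the unstimulated arrays and differed by -1.44 ± 0.12, with ROS above the other groups. Cox6b1 and Cox5a differed by -1.06 ± 0.10 and -0.88 ± 0.13.

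Sterol synthesis genes were mostly lower with LPS. Of 15 measured genes, 11 fell and 1 rose, with a median of -1.0. The median was -0.35 in the authors' values and -1.51 with no scaling. Fdps, farnesyl diphosphate synthase of the mevalonate pathway, lay at 8.24 and 8.08 on the LPS arrays, 11.05 and 11.03 on the ROS arrays and 9.71 and 9.66 on the unstimulated arrays. The ROS arrays were the highest and the LPS arrays the lowest, a difference of -2.88 ± 0.11 or 7.36-fold (adjusted p = 1.77e-05). Cyp51, which removes a methyl group from lanosterol, lay at 7.41 and 7.50 on the LPS arrays, 9.61 and 9.87 on the ROS arrays and 8.23 and 8.26 on the unstimulated arrays and differed by -2.28 ± 0.13. Sqle, squalene epoxidase, differed by -1.65 ± 0.15, and the desaturase Scd1 was at least 4.05-fold higher with ROS. The member that rose was Insig1, which holds SREBP in the endoplasmic reticulum, by 0.65 ± 0.11; its call was lost under median scaling and when its probes were averaged, and its sign turned with no scaling.

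Lysosomal genes were mostly higher with LPS. Of 22 measured lysosomal enzymes, membrane proteins and cathepsins, 16 rose and 2 fell, with a median of 1.18. The 2 that fell were Cst3 and Ctse. Gla, alpha-galactosidase A, lay at 8.91 and 8.75 on the LPS arrays, 6.12 and 5.37 on the ROS arrays and 6.50 and 6.79 on the unstimulated arrays. It was highest with LPS and lowest with ROS, a difference of 3.08 ± 0.26 (adjusted p = 2.11e-04). Npc2, a cholesterol carrier of the lysosome, lay at 11.12 and 10.89 on the LPS arrays, 8.87 and 9.16 on the ROS arrays and 9.47 and 8.97 on the unstimulated arrays and differed by 1.99 ± 0.21. Cathepsin K (Ctsk) lay at 10.10 and 9.53 on the LPS arrays, 7.84 and 7.78 on the ROS arrays and 11.09 and 11.04 on the unstimulated arrays: it was below unstimulated in both groups and differed by 2.0 ± 0.20 between them. Cst3, cystatin C, an inhibitor of cathepsins, fell by 0.80 ± 0.12 on the log2 scale. Cathepsin E (Ctse) differed by -0.41 ± 0.12, a call lost in the authors' values, without either LPS sample, without ROS sample 1 and in 6 of the other settings tried.

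Cell type markers describe the cultures that were compared. Of 15 measured dendritic cell markers, 3 rose and 6 fell, with a median of -0.21, and their summed level was 15.67 to 15.81 with LPS, 15.70 to 15.72 with ROS and 16.41 to 16.58 without stimulation. Among all genes tested, 24.9% rose and 30.9% fell. The marker median was -0.70 under median scaling and -0.83 with no scaling. Itgax (CD11c) was dim at 5.19 and 5.73 on the LPS arrays, 5.63 and 5.32 on the ROS arrays and 6.14 and 6.0 on the unstimulated arrays, above background on 1 of 2 LPS arrays, and its difference of -0.016 ± 0.21 was not called. Flt3 was not among the genes tested. Batf3, a factor of cross-presenting dendritic cells that other activated cells also use, lay at 9.79 and 9.83 on the LPS arrays, 12.22 and 12.07 on the ROS arrays and 11.32 and 11.59 on the unstimulated arrays and differed by -2.34 ± 0.14 (adjusted p = 5.73e-05). Zbtb46, a factor of conventional dendritic cells, differed by -1.52 ± 0.12, and Sirpa, found on other myeloid cells too, by 1.91 ± 0.14.

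Macrophage markers were mostly higher with LPS than with ROS. Of 12 measured, 7 rose and 3 fell, with a median of 1.24 and a summed level of 16.42 to 16.46 with LPS, 15.38 to 15.59 with ROS and 16.503 to 16.55 without stimulation. The largest rise was that of Cd14 (5.28), which is also counted above with the LPS signalling genes. C1qb, a chain of complement C1q, lay at 10.41 and 10.32 on the LPS arrays, 6.86 and 6.73 on the ROS arrays and 12.56 and 12.38 on the unstimulated arrays. C1qc, another chain, lay at 9.91 and 9.81 on the LPS arrays, 5.83 and 5.93 on the ROS arrays and 10.83 and 11.05 on the unstimulated arrays. Both were below unstimulated in the 2 stimulated groups and lowest with ROS, at 3.57 ± 0.13 and 3.97 ± 0.13 between LPS and ROS. Apoe was at least 8.13-fold higher with LPS, as ROS arrays were not above background. F13a1, a monocyte transglutaminase, went the other way and was at least 7.46-fold higher with ROS. The lysosomal and receptor genes above were higher in the same LPS arrays, and the part of these markers in those values was not tested.

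Granulocyte markers were lower with LPS than with ROS. Of 17 measured neutrophil and granulocyte precursor markers, 14 fell and 1 rose, with a median of -2.98. The marker that rose was Lcn2, with a difference of 1.30. S100a9, a subunit of calprotectin, lay at 7.0 and 7.27 on the LPS arrays, 12.60 and 12.62 on the ROS arrays and 12.89 and 13.39 on the unstimulated arrays. Ltf, lactoferrin of secondary granules, lay at 6.80 and 6.70 on the LPS arrays, 11.91 and 12.00 on the ROS arrays and 13.70 and 13.75 on the unstimulated arrays. Both were highest without stimulation and lowest with LPS, with LPS to ROS differences of -5.48 ± 0.20 and -5.21 ± 0.11. The 2 probes of Ltf gave -5.21 and -0.30, so the size depends on the probe. The primary granule proteases Prtn3 and Ctsg were not above background with LPS and at least 25.4-fold and at least 22.1-fold higher with ROS. Their ROS arrays (10.06 and 10.21 and 9.93 and 9.93) exceeded the unstimulated ones (8.60 and 8.81 and 7.61 and 7.64), unlike S100a9 and Ltf. Mpo, myeloperoxidase, was at least 14.4-fold higher with ROS.

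Mast cell, basophil and eosinophil markers were lower with LPS as well. Of 7 measured mast cell and basophil markers, 6 fell and 1 rose, with a median of -3.49. Cpa3, mast cell carboxypeptidase, lay at 5.53 and 6.39 on the LPS arrays, 11.05 and 11.25 on the ROS arrays and 8.71 and 8.63 on the unstimulated arrays and differed by -5.19 ± 0.27 (adjusted p = 3.77e-05). Its 3 probes ranged from -5.19 to -0.98. Fcer1a, the chain of the immunoglobulin E receptor that binds the antibody, was not above background with LPS and at least 17.6-fold higher with ROS, at 5.11 and 4.90 with LPS, 9.49 and 9.73 with ROS and 7.48 and 7.33 without stimulation. Gata2, a factor of both cell types, lay at 7.13 and 5.80 with LPS, 10.09 and 9.81 with ROS and 8.84 and 8.69 without stimulation. The marker that rose was Hdc, histidine decarboxylase, at 13.62 and 13.81 on the LPS arrays, 11.40 and 11.44 on the ROS arrays and 9.33 and 9.19 on the unstimulated arrays; it made up most of the list's summed level on the LPS arrays (13.66 to 13.84), against 13.26 to 13.33 with ROS and 11.32 to 11.38 without stimulation. Of 4 measured eosinophil markers, 3 fell and 1 rose, with a summed level of 8.88 to 9.06 with LPS, 14.33 to 14.40 with ROS and 13.17 to 13.22 without stimulation. Of the 3 that fell, the call of Epx, eosinophil peroxidase, was lost in the authors' values and without either ROS sample. Ear6, an eosinophil ribonuclease with close copies, lay at 5.88 and 6.04 on the LPS arrays, 11.47 and 11.28 on the ROS arrays and 9.51 and 9.45 on the unstimulated arrays and differed by -5.42 ± 0.13. Ear10, another ribonuclease of the family, rose by 1.04 ± 0.25, a call lost under median scaling, under no scaling and without either ROS sample.

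**Figure D5:**
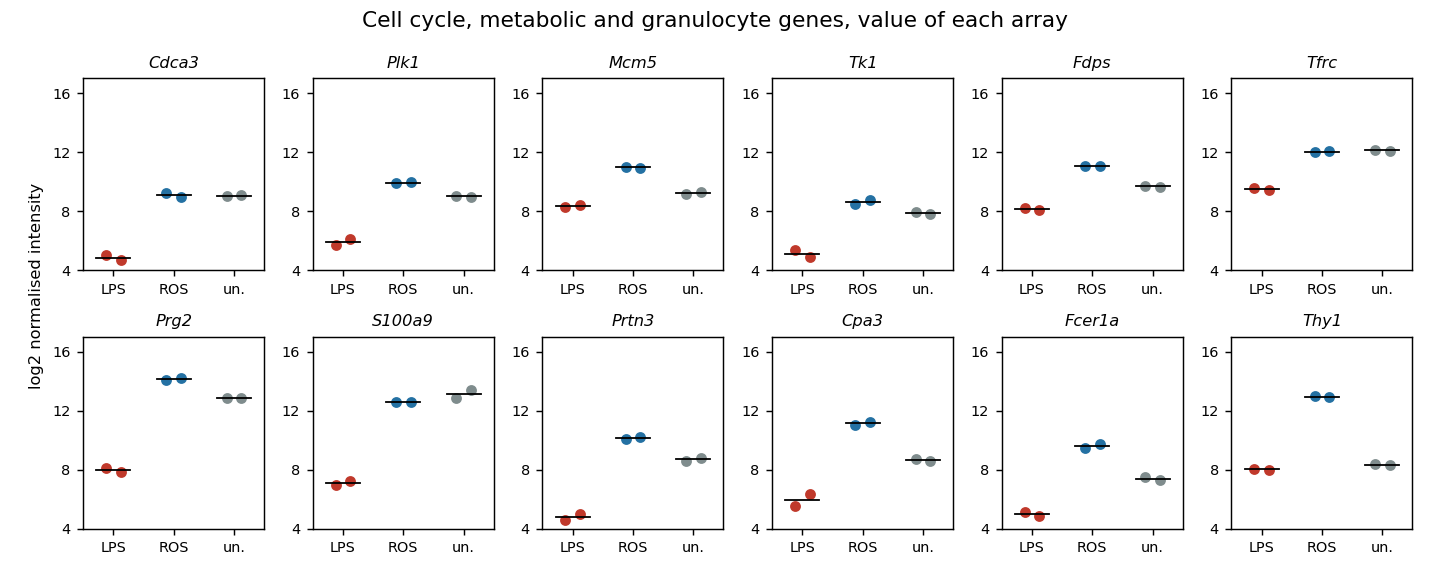
Log2 normalised intensity of 12 cell cycle, metabolic, granulocyte and surface marker genes on each array (points) with the group mean (bar), for LPS, ROS and unstimulated (un.) samples. In all 12 panels both LPS points lie below both ROS points. Thy1 is high with ROS and low in both other groups.

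Thy1, a surface protein of T cells, fibroblasts and some activated myeloid cells, was the widest gap among lymphocyte markers. It lay at 8.09 and 7.97 on the LPS arrays, 13.01 and 12.94 on the ROS arrays and 8.37 and 8.32 on the unstimulated arrays. LPS and unstimulated arrays were close and ROS stood above both, so LPS was 30.8-fold below ROS (-4.95 ± 0.11, adjusted p = 7.26e-06). Of 6 measured T, B and natural killer cell markers, 4 fell with LPS and none rose. The calls of Nkg7 and Prf1, proteins of cytotoxic granules, were lost without LPS sample 1 or either ROS sample, and 2 genes fell without LPS sample 1 or ROS sample 1. Cd3e, Cd4 and Cd8a were not among the genes tested.

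Some genes moved strongly with both stimuli and ended at like levels. They were taken as the 8 genes with the smallest LPS to ROS difference among those called in the same direction by both stimuli with a log2 change of at least 1.5 from unstimulated (the share of all genes called against unstimulated was 53.7% for LPS and 39.8% for ROS, which share those arrays). Adar, an RNA-editing enzyme with an interferon-induced form, lay at 10.40 and 10.38 on the LPS arrays, 10.42 and 10.26 on the ROS arrays and 8.27 and 8.64 on the unstimulated arrays. Its LPS to ROS difference was 0.05 ± 0.16, with a 95% interval of -0.33 to 0.43. Its 3 probes ran from 0.050 to 1.05, and their mean of 0.70 was called higher with LPS (adjusted p = 0.00391), so the like level of Adar depends on the probe. Trappc6a, a subunit of a vesicle tethering complex, lay at 9.12 and 9.20 on the LPS arrays, 9.10 and 9.23 on the ROS arrays and 10.68 and 10.66 on the unstimulated arrays, with an interval of -0.28 to 0.27. Mmp9, a gelatinase of neutrophils and macrophages, lay at 7.92 and 7.56 on the LPS arrays, 7.58 and 7.89 on the ROS arrays and 10.11 and 9.77 on the unstimulated arrays, with an interval of -0.48 to 0.49. The other 5 were Ptpn22, Nme4, Mtss1, Klk15 and Gask1b, all lower than unstimulated in both groups. Because the genes were picked for a small difference, intervals that span 0 follow from the choice and are no test of like levels. These intervals are for 1 probe a gene under quantile scaling. With no scaling Adar was at -0.42, Mmp9 at -0.68 and Mtss1 at -0.56, and Trappc6a, Ptpn22 and Gask1b were called lower with LPS under median scaling and no scaling.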

How the data were processed

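RNA of 6 bulk cultures (2 per group) was amplified, labelled with biotin and read on Illumina mouse bead arrays with 1 colour. The deposited intensity of each of 25697 probes and its detection p-value came from GenomeStudio 2009.2, per the submitters' processing notes, without normalization. The authors' deposited log2 table holds 11220 of these probes, matches quantile normalization of the signals to within 0.003 on the log2 scale, and its log base and scale are inferred from that match. Detection p-values of LPS sample 2 were not used here: its detection limit (a signal of 160.52 to 160.57) was recovered from which probes the authors listed. Gene names came from GEO's platform annotation of the authors' table, with 10551 of 10558 annotated probes matched to RefSeq (GRCm38.p6) through Entrez numbers. That table holds the probes above background on at least 3 arrays. Probes above background on the 2 arrays of a single group alone thus had no gene name and are not among the genes tested. Intensity and log2 columns were mapped for every sample, and detection p-value columns for every sample but LPS sample 2.

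Signals were background-corrected by normexp with an offset of 16, quantile normalized and converted to log2. Kept were probes for which both arrays of some group had a detection p under 0.05 (11622 probes), and among several probes to a gene the brightest on average stood for it (1897 of 7897 genes had several). limma 3.58.1 in R 4.3.3 fitted 3 groups (residual df 3, prior df 3.02), and genes were called at an adjusted p under 0.05. The fit was also run on simulated data with independent noise and few changed probes. That setting differs from these data, so it does not bear on the calls. The offset pulls differences of dim genes towards 0. Array number, 2 a group, limits the precision.

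Replicate arrays correlated at 0.988 to 0.993, and LPS with ROS arrays at 0.873 to 0.877. Labels give the same replicate numbers in each group but no shared source, and deviations of same-numbered LPS and ROS arrays correlated at -0.02, so no pairing was used. The samples compared and the 35 gene lists were chosen with earlier results of these data known. Genes named are the 12 highest and 12 lowest, up to 5 called members of each list in each direction, a set of well-known genes, and 8 genes near equal between the stimuli. Uncalled members named to complete a count of 5 or fewer were chosen after their values were seen. A summed level is the log2 of the summed intensities of a list. Some genes belong to more than 1 list, so the lists are not separate readings. Cd14 is in the LPS signalling and macrophage lists, and Fscn1 in the maturation and dendritic cell lists. Alternatives tried were the authors' values, other background, offset, scaling, filter and probe choices, a replicate block, LPS and ROS arrays alone, each array left out, and an adjusted p under 0.01.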

Additional observations from a re-analysis of the deposited data

Results flagged for a closer look

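A set of 143 probes was above background on both LPS arrays and on no other array, and none has a gene name here, because the annotation covers the probes of the authors' table and none of the 143 is in it. They were noticed as a signal outside the comparison of named genes. Their median level was 6.34 on the log2 scale, the highest mean was 10.2, and 15 of them were at least 10-fold above the ROS background bound, up to at least 29.9-fold. By the same count, 193 probes were above background on the ROS arrays alone and 199 on the unstimulated arrays alone.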

How the results depend on the processing

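Scaling between arrays was the choice that moved the counts by over 1.5 times: with median scaling 1111 genes were higher and 3923 lower with LPS, and with no scaling 926 and 4381, against 1963 and 2438. Under the other settings the counts stayed within 1.5 times. Leaving out each array in turn gave 1572 to 1805 higher and 1952 to 2267 lower genes, where a lone array was assumed to vary like the other groups. No gene was called in both settings with opposite signs, apart from 1 gene when probes of a gene were averaged. Pairing by replicate number, as a replicate block, gave 1856 higher and 2319 lower genes and ended the call of Irf9 among the named genes. An adjusted p under 0.01 left 1356 and 1693.

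Median scaling turned Irf9 to -0.0048 and Jun to -0.086, and no scaling turned Irf9 to -0.14, Jun to -0.22, Insig1 to -0.069, Mmp9 to -0.68, Mtss1 to -0.56 and Adar to -0.42. The mean of probes turned Cd86 to 0.925. List medians that turned were interferon regulators (-0.26 with median scaling, -0.40 with no scaling, and -0.027 to 0.027 with an array left out), antioxidant enzymes (-0.15, -0.28, and -0.033 to 0.194 with an array left out, negative without LPS sample 1), iron and heme (-0.022 and -0.16) and glycolysis (-0.018 with no scaling). The cause was not tested. A sign change of a gene called in neither setting was not counted as a reversal. In the authors' values, list medians over 1.5 times nearer to 0 also included granulocyte (-1.81, against -2.98), mast cell and basophil (-2.30, against -3.49), eosinophil (-2.02, against -3.13), lymphocyte (-0.38, against -0.88), erythroid (-0.78, against -1.60), stromal (0.43, against 1.08), NRF2 (0.26, against 0.49), immediate early (0.24, against 0.39) and dendritic cell (-0.11, against -0.21) genes.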

Other observations

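Genes of p53 and cell death were divided between the stimuli. Of 19 measured, 5 rose and 10 fell with LPS relative to ROS, with a median of -0.35. The median was -0.69 with no scaling and -0.14 when probes were averaged. Gadd45a, a stress-induced growth arrest gene, lay at 12.12 and 11.62 on the LPS arrays, 8.42 and 8.71 on the ROS arrays and 9.90 and 9.92 on the unstimulated arrays, a difference of 3.31 ± 0.20. Casp4, the mouse caspase-11 that senses LPS inside cells, differed by 2.60 ± 0.14, and its 3 probes ranged from 0.22 to 2.71. The p53 targets Phlda3 and Sesn1 were not above background with LPS and at least 3.02-fold and at least 2.73-fold higher with ROS. Pmaip1, or Noxa, and Trp53inp1 differed by -1.30 ± 0.12 and -1.45 ± 0.11.

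Markers of stromal cells and platelets also differed. Of 7 measured stromal and endothelial markers, 5 rose and 1 fell with LPS. The marker that fell was Acta2, with differences of -1.45 to -0.39 across the alternative settings. Dcn, a matrix proteoglycan of fibroblasts, lay at 11.16 and 11.42 on the LPS arrays, 5.98 and 6.22 on the ROS arrays and 6.83 and 6.65 on the unstimulated arrays, a difference of 5.19 ± 0.15, and Sparc and Timp3 differed by 1.58 ± 0.14 and 1.37 ± 0.17. Ppbp, a platelet chemokine, was not above background with LPS and at least 11.5-fold higher with ROS. Hba-a1, a hemoglobin chain with a close copy, lay at 8.43 and 8.55 on the LPS arrays, 10.50 and 10.46 on the ROS arrays and 10.01 and 10.08 on the unstimulated arrays. Of 6 measured erythroid and megakaryocyte markers, 4 fell and none rose.

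Other motifs searched on both strands of the same promoter windows gave these shares. The hypoxia core ACGTGC was present in 7 of 12 hypoxia genes (58.3%) and 6 of 15 glycolysis genes (40.0%), against 9.66% of the genes tested with an entry and 6.68% of all. A kappaB form, GGG and CC with any 5 bases between, was present in 70.5% of genes at least 4-fold higher with LPS and in 71.3% of all genes tested with an entry. TGACTCA, the AP-1 motif, was present in 22 of 210 genes at least 4-fold higher (10.5%) and in 12 of 262 at least 4-fold lower (4.58%), against 4.92% of the genes tested. CCAAT was present in 10 of 10 sterol genes, against 44.0% of the genes tested.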
